A study of Mus musculus with 4 samples.

Results

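The regions described here are dense clusters of sites bound by SCL, the transcription factor that Tal1 encodes. A dense cluster was defined as a chain of 4 or more SCL peaks in which each summit lies at most 12500 bp from the next on the same chromosome. The members were selected on the summit positions of the called peaks, so that their number and closeness are a description of the choice and not a finding. By this rule, 715 of 12885 peaks (5.55%) fell into 151 clusters. The study gives a lower number of loci than there are peaks in the list. It names a genome viewer with which peaks were filtered but gives no settings, so the step from one to the other could not be repeated. All peaks were therefore used, and membership depends on that choice. A chain of 23 peaks in repeat-rich sequence at chr9:3000380-3038057 was left out, and the other 12147 peaks served for comparison. Of these, 8437 were alone, 2654 were in chains of 2 and 1056 in chains of 3.

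The study mapped SCL binding by chromatin immunoprecipitation and sequencing (ChIP-seq) in mouse mesoderm. Wild-type J1 embryonic stem (ES) cells (strain C57Bl/6 X Sv129) were differentiated as embryoid bodies to day 3.5, and cells with the receptor FLK1 on their surface were isolated on magnetic columns. There were 2 libraries precipitated with a rabbit antiserum to SCL made in-house and 2 libraries of input chromatin, all from the same unmodified line, with no SCL-null control among them. The ChIP was done on 2 independent differentiations. The peak list was called on the merged libraries and holds no value per library, hence replicate error cannot be given for any value below and no comparison was tested against it. Intervals given below are 95% intervals that cover counting error only.

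SCL is a basic helix-loop-helix factor that is required for the formation of blood. It pairs with E proteins to contact E-box sequences and is joined by the LMO2 and LDB1 bridge proteins to a GATA factor, so that bound sites often hold a GATA motif, with or without an E-box or its CTG part at a set distance. Enhancers of lineage genes frequently lie close together along the chromosome, and such groups are commonly joined by stitching neighbours within a fixed distance.

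To show what the peaks of a cluster look like, windows reaching 50 bp to each side of the summit are printed below as they stand on the plus strand of mm9. Capitals mark a GATA motif (GATA with A or T before it and A or G after it, on either strand) or a composite of CTG followed after 7 to 9 bp by GATA on either strand, and overlapping matches share their capitals. The first set is from the cluster at Cbfa2t3, which encodes ETO2, a corepressor that joins the SCL complex. It is shown because peaks of very different strength stand side by side there. The windows are given from the strongest peak to the weakest, and peaks are numbered along the chromosome.
Cbfa2t3 peak 8, chr8:125243753-125243853: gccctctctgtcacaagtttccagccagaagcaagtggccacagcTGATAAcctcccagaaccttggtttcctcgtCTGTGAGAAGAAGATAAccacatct
Cbfa2t3 peak 4, chr8:125223107-125223207: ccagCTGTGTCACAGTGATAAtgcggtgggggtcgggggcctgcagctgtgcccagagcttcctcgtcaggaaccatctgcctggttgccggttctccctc
Cbfa2t3 peak 1, chr8:125209516-125209616: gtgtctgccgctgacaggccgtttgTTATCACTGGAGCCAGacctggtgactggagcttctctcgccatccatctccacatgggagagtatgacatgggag
Cbfa2t3 peak 6, chr8:125236175-125236275: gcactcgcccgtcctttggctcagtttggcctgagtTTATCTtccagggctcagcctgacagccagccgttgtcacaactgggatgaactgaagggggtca
Cbfa2t3 peak 5, chr8:125224781-125224881: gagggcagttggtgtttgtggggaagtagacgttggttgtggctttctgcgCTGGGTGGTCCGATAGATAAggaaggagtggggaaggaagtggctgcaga
Cbfa2t3 peak 3, chr8:125219492-125219592: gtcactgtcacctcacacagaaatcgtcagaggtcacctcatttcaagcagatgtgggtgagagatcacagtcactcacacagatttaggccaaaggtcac

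In this cluster the 3 strongest peaks and a weaker one, peak 5, had the composite, peak 6 had a GATA motif only and peak 3, the weakest, had neither. Peaks 2, 7 and 9, whose windows are not shown, had a GATA motif only as well, so that this was the state of 4 of the 9. The second set holds the peak with the highest fold in each of the other clusters with most peaks or most fragments. The window at Gypc is not shown.
Gse1 peak 8, chr8:123011031-123011131: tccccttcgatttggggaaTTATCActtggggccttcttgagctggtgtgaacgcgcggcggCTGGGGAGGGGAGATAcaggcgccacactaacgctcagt
Gse1 upstream cluster peak 2, chr8:122894020-122894120: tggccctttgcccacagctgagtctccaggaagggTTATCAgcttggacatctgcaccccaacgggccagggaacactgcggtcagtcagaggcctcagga
Aplnr peak 6, chr2:84981128-84981228: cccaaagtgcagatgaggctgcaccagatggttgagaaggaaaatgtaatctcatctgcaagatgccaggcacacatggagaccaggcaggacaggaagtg
Accn4 peak 8, chr1:75460477-75460577: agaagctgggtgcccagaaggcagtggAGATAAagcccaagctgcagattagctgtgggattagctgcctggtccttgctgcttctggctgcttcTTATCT
Gm11019 peak 7, chr13:98223126-98223226: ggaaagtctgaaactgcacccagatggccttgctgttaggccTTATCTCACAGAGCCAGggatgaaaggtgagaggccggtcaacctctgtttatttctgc
Gadd45g peak 7, chr13:51944182-51944282: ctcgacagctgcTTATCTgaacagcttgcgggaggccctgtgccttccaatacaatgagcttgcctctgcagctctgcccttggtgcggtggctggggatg
4933440J02Rik peak 4, chr10:111106840-111106940: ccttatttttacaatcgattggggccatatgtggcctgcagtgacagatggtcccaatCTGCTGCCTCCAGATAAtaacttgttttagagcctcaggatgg
Zfpm1 downstream cluster peak 5, chr8:124845678-124845778: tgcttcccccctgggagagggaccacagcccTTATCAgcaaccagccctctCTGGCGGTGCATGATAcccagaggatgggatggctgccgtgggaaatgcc
Zfpm1 upstream cluster peak 3, chr8:124810969-124811069: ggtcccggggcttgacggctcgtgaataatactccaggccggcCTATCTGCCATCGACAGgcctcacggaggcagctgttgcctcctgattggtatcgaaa
Cx3cl1 and Ccl17 peak 6, chr8:97324566-97324666: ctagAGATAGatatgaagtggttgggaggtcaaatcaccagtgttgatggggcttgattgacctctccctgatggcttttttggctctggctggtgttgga
Ptpre peak 4, chr7:142790283-142790383: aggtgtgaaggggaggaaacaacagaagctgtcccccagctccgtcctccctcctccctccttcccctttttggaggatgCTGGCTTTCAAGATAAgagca
Rap1a peak 1, chr3:105611571-105611671: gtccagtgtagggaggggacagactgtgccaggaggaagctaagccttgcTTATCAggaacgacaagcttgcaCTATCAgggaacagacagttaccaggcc

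Of these 12 summit windows, 6 held the composite, 5 a GATA motif alone and 1, at Aplnr, neither. The strongest peak of the other 6 of these clusters thus had no composite in its window. All letters are from the mouse genome build of the peak list, mm9, and a match is a description of the sequence and not of binding.

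The clusters were mostly short. Of the 151, 92 had 4 peaks, 35 had 5, 13 had 6 and 11 had 7 or more, with a maximum of 12. Their median span was 16807 bp, with quartiles of 12444 and 22781.5 bp and a range of 3825 to 53368 bp. Between the 564 pairs of neighbouring summits, the median distance was 3914.5 bp (quartiles 1573 and 7295.5 bp), and 78 pairs were under 1 kb apart. Called peaks covered a median of 13.9% of a cluster's span, so most of the sequence between the first and the last peak was not called.

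The rule has a sharp edge. The widest gaps just inside it were 12494 bp in a cluster at Cubn, 12424 bp at Lsp1 and 12405 bp between the genes D5Ertd579e and Cno. Just outside, a gap of 12535 bp kept a chain of 3 peaks and a single peak apart at Rreb1, one of 12574 bp did so at Pik3c2b, and one of 12635 bp separated 2 pairs at Tiam2. Likewise, both clusters at Zfpm1 were counted apart for a gap of 12794 bp.

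The peaks of a cluster were of very unequal strength. Strength was measured as the fold enrichment at the summit, the ratio of ChIP fragments to local background, and as the pileup, the number of ChIP fragments stacked there. The strongest peak of a cluster had a median fold of 43.4, and 21 clusters had a peak with a fold of 100 or more. The ratio of the highest to the lowest fold within a cluster had a median of 5.38, with quartiles of 3.39 and 10.3. It was largest at Cbfa2t3, 51.2, where 236.6 stood beside 4.62. A single peak often carried much of a cluster's fragments, as the deepest peak held a median of 47.9% of the summed pileup (quartiles 37.9% and 59.2%) and at least 50% of it in 66 clusters. At Zfp423, a zinc finger gene, it held 87.8%, at Rap1a 86.0% and at Ets1 85.9%. The strongest peak was at either end of the row in 63 of the 151 clusters. The number that a random order would give was not computed, so this count is not read as a trait of the clusters.

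Over the whole list, peaks of dense clusters differed little from the others in median fold. Their median fold was 11.8 (interval of the median 10.8 to 12.9), against 11.1 (11.0 to 11.4) for all other peaks, and it was 12.3 without the high-background clusters described below. With these clusters kept, the median by length of the chain was 10.8 for peaks alone, 11.9, 12.8 and 13.0 in chains of 2, 3 and 4, 10.7 in chains of 5 and 11.4 in longer ones. Among peaks with a fold of at least 10, chained anew, it was 26.6 in dense clusters and 18.1 in the others. When the folds of the whole list were divided at its quartiles of 7.84, 11.1 and 20.1, the classes from lowest to highest held 202, 137, 146 and 230 of the clustered peaks. Without the high-background clusters the lowest class held 174 of 687 and the others were unaltered, so that the highest class held most and the middle classes fewest. A fold of at least 100 was found in 27 (3.78%) of them and in 188 (1.55%) of the others, which were mostly peaks alone (1.17%), while chains of 2 had 2.26% and chains of 3 had 2.75%. They were also wider (median 455 against 394 bp), with a median pileup of 71 against 52 fragments on a median background of 4.40 against 3.67 fragments, and richer in G and C at the summit (52.5% against 50.5%). Chains of 3 lay close to them in these measures, with a median width of 436.5 bp, a pileup of 65.5 on a background of 4.19 fragments and 51.5% G and C, so the traits are not particular to dense clusters.

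**Figure D1:**
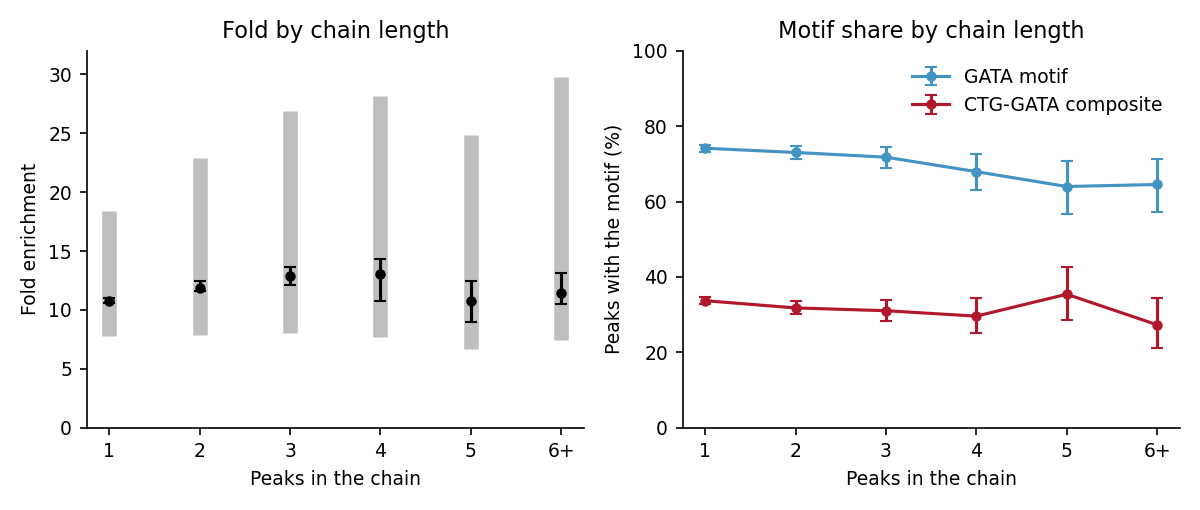
Left, fold enrichment (ratio) by number of peaks in the chain, with the median as a point, its 95% interval as a black bar and the quartiles as a grey bar. Right, share of peaks (%) with a GATA motif or the CTG-GATA composite within 50 bp of the summit, with Wilson 95% intervals. Median fold stays between 10.7 and 13.0 throughout, while the share with a GATA motif goes from 74.1% for peaks alone to 64.5% in chains of 6 or more.

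By position in genes, clustered peaks resembled the rest of the list. Promoters, within 1 kb of a transcription start site (TSS), held 65 (9.09%; Wilson interval 7.20% to 11.4%) of the clustered peaks against 8.31% of the other peaks. Introns held 40.8% against 40.8%, and intergenic sequence 47.7% against 48.8%. Whole clusters often kept to one kind of sequence. Of the 151 clusters, 41 lay with all their summits in introns and 49 with all in intergenic sequence, and 45 had at least 1 promoter peak. A TSS lay inside the span of 50 clusters. In 121 clusters all peaks had the same nearest gene.

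Dense clusters lay on every autosome, on X and on Y, but unevenly. Chromosome 8 had 21 clusters, which held 112 of its 868 peaks (12.9%), chromosome 12 had 9.77% of its peaks in clusters, and chromosome 19 had 1 cluster with 1.70% of its peaks. The share was highest on Y, where 4 of 5 peaks formed a cluster. That cluster and 3 of the 21 on chromosome 8 had a high background and are described below.

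Before turning to motifs, 6 clusters with 28 peaks have to be set apart, since their median background was more than 10 times that of the list. These lay at chr2:98502421-98507467, chr17:39979974-39985716 and chrY:2785281-2796817, and at chr8:19694206-19724779, chr8:19759638-19784973 and chr8:19908780-19924274. Their folds were between 1.46 and 6.14, with a median of 2.71, and their median background was 65.8 fragments. The cluster on chromosome 2, beside the predicted genes Gm10800 and Gm10801, had 52072 fragments summed over 4 summits, more than any other cluster, and its deepest peak stood at 29733 fragments on a fold of 2.16. A GATA motif was in 6 of the 28 windows (21.4%), against 17.8% of flanking windows, and the composite in 1 (3.57%; interval 0.633% to 17.7%). Reads with up to 2 matching places were kept by the authors. Without these 6 clusters, the median fold of the remaining 687 peaks was 12.3. The shares of the GATA motif and the composite below are given with and without these clusters.

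GATA motifs were less frequent in dense clusters than elsewhere in the list. Within 50 bp of the summit, 473 of the 715 windows (66.2%; Wilson interval 62.6% to 69.5%) had a GATA motif, against 73.7% of the other peaks. The difference was -7.54 percentage points, with a Newcombe interval of -11.2 to -4.08 points. Without the high-background clusters 68.0% had the motif, and the difference was -5.82 points (-9.49 to -2.35). By length of the chain, the share was 74.1% of peaks alone, 73.0%, 71.8% and 67.9% in chains of 2, 3 and 4, 64.0% in chains of 5 and 64.5% in longer ones, with overlapping intervals between neighbours in this order. Without high-background peaks the last 3 of these were 69.7%, 66.7% and 65.7%. Peaks of a cluster share their region, so they are not independent and the intervals may be too narrow. Flanking windows 1 kb away had it in 17.8%, and clustered peaks were far above this.

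For the composite the difference was smaller. It was in 30.5% of clustered peaks (27.2% to 34.0%), in 33.1% of the others and in 3.07% of flanking windows, and the difference of -2.57 points had an interval that included 0 (-5.94 to 0.997). Without the high-background clusters the share was 31.6%, and the difference of -1.51 points had an interval of -4.98 to 2.16. The share was the lower one under all 8 alternative memberships too, with an interval clear of 0 when stitching at 20 kb (-3.30 points, -5.87 to -0.627) and with the chromosome 9 chain kept (-3.52 points, -6.81 to -0.0314). The distance between CTG and GATA was also alike, as 9 bp was the most frequent spacing in both (17.9% and 18.4% of windows), followed by 8 bp (10.9% and 12.4%). The E-box CANNTG was in 51.6% of clustered and 52.6% of other peaks and its variant CAGCTG in 14.3% and 14.1%. An ETS motif, AGGAA on either strand, was in 47.4% against 52.2%, a difference of -4.79 points (-8.53 to -1.02), with 33.1% in flanking windows. The RUNX motif TGTGGT (8.53% against 9.64%) and the KLF motif CACCC (25.3% against 23.9%), both on either strand, had differences whose intervals included 0.

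As some motifs vary with strength, the shares were then compared among peaks of like fold, without the high-background clusters. In the class of lowest fold, 54.0% of 174 clustered peaks had a GATA motif against 62.3% of the others, a difference of -8.31 points (-15.9 to -0.857). The next class gave -8.92 points (-17.4 to -1.22) and the one after it -6.29 points (-14.3 to 0.734). Among the peaks of highest fold the shares were 79.6% and 83.5%, and the difference of -3.91 points (-9.73 to 0.989) could not be told from 0 at this number of peaks. For the composite all 4 intervals included 0, although with the high-background clusters kept the class of lowest fold gave -7.90 points (-12.7 to -1.94). In that highest class the composite was in 46.1% of clustered peaks and 43.6% of the others. The E-box variant CAGCTG, with those clusters kept, was in 21.3% against 15.8% in the highest class (5.52 points, 0.534 to 11.4) and in 6.93% against 12.4% in the lowest (-5.42 points, -8.44 to -0.911), among 28 such intervals. Without them the highest class gave the same difference, and the interval of the lowest included 0 (-4.97 points, -8.27 to 0.0468).

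**Figure D2:**
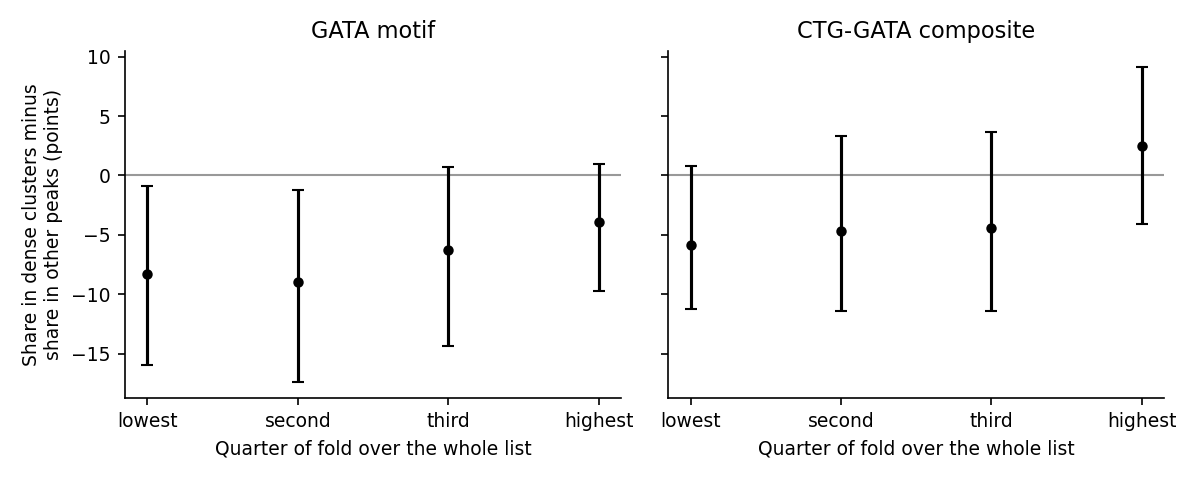
Difference in the share of summit windows with a motif, dense clusters minus other peaks (percentage points), in 4 classes cut at the quartiles of fold of the whole list, without high-background peaks. Bars are Newcombe 95% intervals. For the GATA motif all 4 differences are below 0, with the interval clear of 0 in the lower pair of classes, while for the composite every interval crosses 0.

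Pooled over clusters, the share of peaks with the composite fell with their rank in the cluster. Single clusters need not show this order, as at Aplnr the strongest peak, with a fold of 151.6, had no composite and one of 14.4 had it. Peaks of rank 5 or more come only from clusters with at least 5 peaks. In the 145 clusters without high background, peaks were ranked by fold, and the median folds of ranks 1 to 4 were 45.8, 18.4, 11.0 and 7.71, which is what ranking produces. The composite, which the ranking did not use, was in 66 of the 145 strongest peaks (45.5%; 37.6% to 53.6%), then in 39.3%, 29.7% and 22.8%, and in 18 of the 107 peaks of rank 5 or more (16.8%; 10.9% to 25.03%). The GATA motif was in 80.0% (72.8% to 85.7%) of the strongest, in 75.2%, 60.7% and 64.8% of ranks 2 to 4 and in 56.1% (46.6% to 65.1%) of the weakest class. The E-box was in 61.4% (53.3% to 68.9%) of the strongest, in 53.8%, 46.2% and 51.0% of the next ranks and in 43.0% (34.0% to 52.5%) of the weakest class. The ETS motif had no such order, with 45.5% in rank 1 and 54.2% in rank 5 or more and overlapping intervals. Promoter peaks made up 7.59% of the strongest and 10.3% of the weakest class, also with overlapping intervals. Outside clusters, a GATA motif was in 62.3% of the other peaks in the class of lowest fold and in 83.5% in the highest. For the composite these shares were 24.8% and 43.6%. The E-box differed little there, with 51.6% and 54.1%. An effect of rank apart from fold was not tested.

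**Figure D3:**
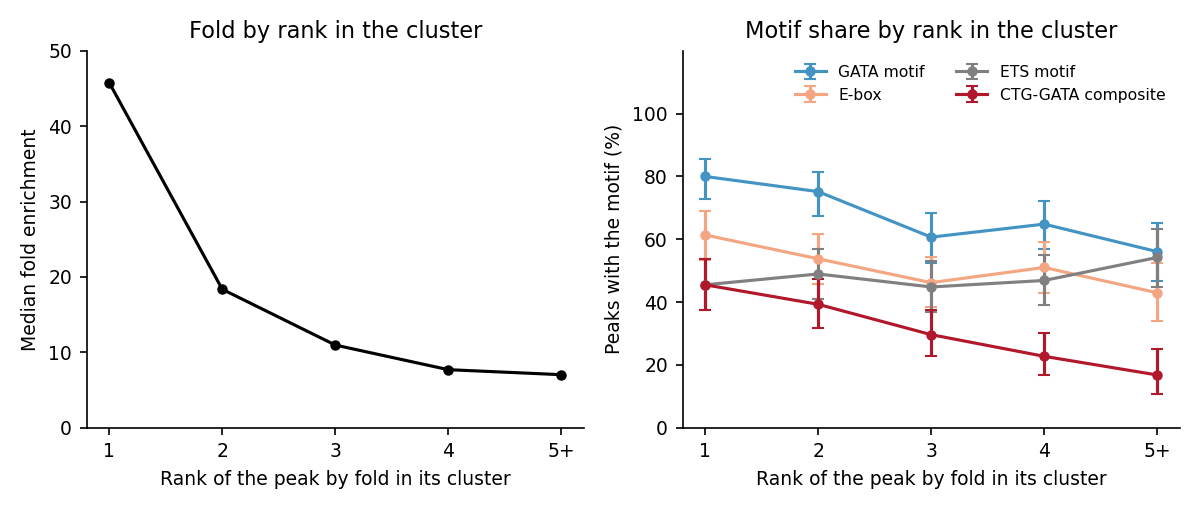
Peaks of the 145 clusters without high background, by their rank in fold within the cluster. Left, median fold (ratio), and right, share of peaks (%) with each motif within 50 bp of the summit, with Wilson 95% intervals. The composite goes from 45.5% in rank 1 to 16.8% in rank 5 or more and the GATA motif from 80.0% to 56.1%, while the ETS motif shows no such order.

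The distance to the nearest summit of the same cluster was looked at as well, in the 687 peaks of clusters without high background. Of the 140 peaks with another summit under 1 kb away, 61.4% (53.2% to 69.1%) had a GATA motif, and of the 191 peaks whose nearest summit was at least 5 kb away 72.8% (66.1% to 78.6%), with 67.5% and 68.7% in the classes between. The difference between the ends was 11.3 points (1.16 to 21.5). The composite was in 33.6% and 33.0% of the same peaks. The split by distance was chosen after the shares above had been seen.

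At the level of whole clusters, 68 had the composite in 2 or more peaks, 52 in 1 and 31 in none, of which 26 had no high background. Every peak had a GATA motif in 21 clusters and no peak had one in 4, of which 3 were high-background clusters and the other was at 3930402G23Rik. With 5 composite peaks each, the clusters at Glrx5, a glutaredoxin of iron-sulphur cluster assembly, and Pcnxl2 had the most.

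The largest clusters lay near genes of blood, endothelium and repression, and near genes outside the lists of such genes used here. The cluster with most peaks, 12, was at chr8:122979341-123022627 around a TSS of Gse1, which encodes a subunit of a corepressor complex that holds histone deacetylase. It was carried by 3 peaks with folds of 42.0, 103.2 and 106.6, and the other 9 were between 4.31 and 13.1. Of its summits 1 was in a promoter and the rest were in introns, those before the TSS in introns of Gm20388, a long gene model that runs across several genes of chromosome 8. A second cluster assigned to Gse1, at chr8:122887651-122898814, had 4 peaks with folds of 15.0, 232.8, 173.4 and 15.0 and a sum of 3960 fragments. Its nearest Gse1 TSS was at least 114181 bp away, and it too lay in introns of Gm20388, so the assignment to Gse1 rests on the nearest TSS alone.

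Next came Aplnr, the apelin receptor of mesoderm and vessels, with 10 peaks at chr2:84969474-85008907. Its strongest peak, fold 151.6, lay 4661 bp from the TSS of Aplnr and held neither a GATA motif nor the composite, and in the whole cluster 1 peak had the composite. Its last 3 peaks along the chromosome were nearest to Gm13713. The cluster at Cbfa2t3, chr8:125209015-125248402, had 9 peaks and 4807 fragments, the largest sum outside the high-background clusters. Along the chromosome its folds were 54.6, 11.7, 4.62, 120.7, 9.47, 13.3, 6.79, 236.6 and 9.47. Peak 4 was a promoter peak, 148 bp from the TSS, while peak 8, the strongest (counting interval 228.0 to 245.5), was 20794 bp away, upstream of Cbfa2t3 and in an intron of Gm20388. The 3 high peaks, of which the first stood at one end of the row, thus had low peaks between them.

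Zfpm1 encodes FOG1, the cofactor of GATA1, and had both of its clusters in its introns. The upstream one, chr8:124807313-124821043, had 6 peaks with folds from 5.04 to 87.6, of which 2 had the composite. The downstream one, chr8:124832974-124850671, had 7 peaks from 7.76 to 152.4 and a sum of 4197 fragments. Its 3 last summits were nearer to a TSS of Trhr2, a hormone receptor gene, although they lie in an intron of Zfpm1. Here too Gm20388 overlaps. Accn4, the older symbol of Asic4, an acid-sensing ion channel, had 9 peaks at chr1:75442706-75461542. Of these 6 had a fold of 24.8 or more and the other 3 lay between 5.16 and 11.3, and 4 of the 9 had the composite.

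Like Accn4, the other 5 of the 10 clusters with most peaks lay at genes outside the lists of blood, endothelial and repressor genes. Accn4, Gadd45g and Ptpre are, however, among the genes that the study lists as bound and activated by SCL. Gm11019, a predicted gene on chromosome 13, had 9 peaks over 53368 bp, the longest span, with folds up to 170.5 (chr13:98187068-98240435). At Gadd45g, a stress-response gene, 9 peaks lay around the gene at chr13:51929042-51949298. Its strongest reached only 43.4 and its deepest held 21.2% of the fragments, so that no peak stood out. A cluster of 8 intergenic peaks at chr10:111091998-111118305 was between 60808 and 86797 bp from its nearest TSS, that of 4933440J02Rik, with folds up to 34.0. The cluster at chr8:97284496-97326607 ran from upstream of the chemokine gene Cx3cl1 across it towards Ccl17, another chemokine gene, with 7 peaks. The highest fold, 76.2, was between both genes and 9737 bp from the TSS of Ccl17. At Ptpre, a receptor-type tyrosine phosphatase, 7 intronic peaks at chr7:142785440-142800250 had folds from 12.6 to 56.3.

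Gypc and Rap1a were named for their fragments and not for their number of peaks. Gypc, glycophorin C of the red cell membrane, had 4 intronic peaks at chr18:32697778-32711947 with folds of 136.7, 29.1, 265.8 and 10.8, of which 265.8 was the highest fold of any clustered peak. Rap1a, a small GTPase, had a single strong peak of 163.5 followed by 16.8, 16.0 and 6.21 in intergenic sequence at chr3:105611354-105629013.

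**Figure D4:**
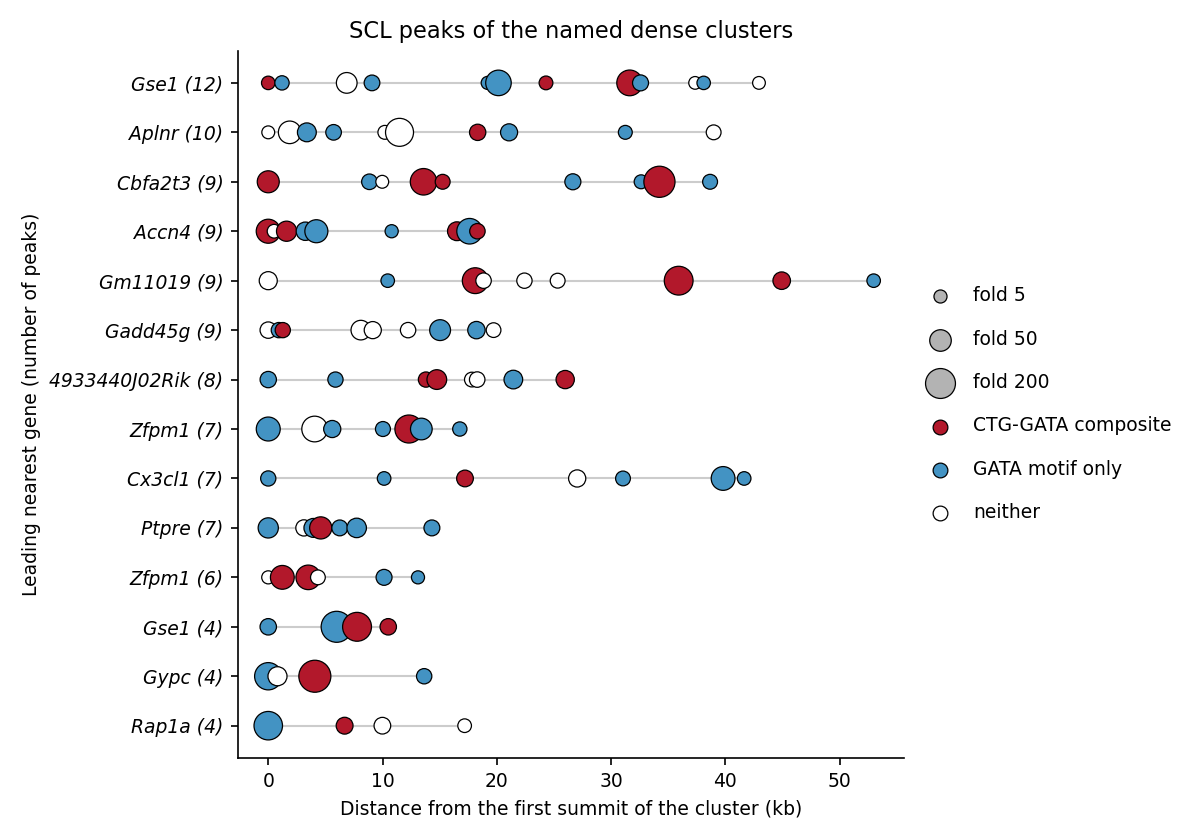
Each row is a dense cluster, named by its leading nearest gene with its number of peaks, and each circle a summit at its distance (kb) from the first summit of the cluster. The area grows with fold enrichment, and colour shows whether the summit window has the composite, a GATA motif only or neither. Strong peaks, such as those of 232.8 and 173.4 in the Gse1 row with 4 peaks, stand among weaker ones, and white circles are seen among the strong peaks too, as at Aplnr.

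To see which kinds of genes had a dense cluster, each peak was given to the gene with the nearest TSS. Of 26061 annotated genes, 183 (0.702%) were nearest to a clustered peak, and they made up 2.64% of the 6927 genes nearest to any peak. Lists of genes were then counted against both shares. A gene with many peaks has more chances of a cluster, and 19.9% of the 700 genes with 4 or more peaks had one, so this share is given as well.

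The gene lists were chosen with earlier results of these data known, so their shares and order are a description and not independent evidence. Of the gene lists, endothelial genes had the largest share, 10 of 32 (31.2%; Wilson interval 18.0% to 48.6%). The 10 include Cyp26a1, which the study lists as repressed by SCL. Of the 26 endothelial genes with any peak 38.5% had a cluster, close to the 37.5% of repressors and Polycomb proteins. Of the 14 endothelial genes with 4 or more peaks, 10 had a cluster (71.4%; 45.4% to 88.3%). By this last count the endothelial list was not the highest, as 3 of 4 genes of the SCL complex and its family had one. For repressors and Polycomb proteins it was 6 of 10, and for blood transcription factors 5 of 9. The intervals of these lists overlap widely, and red cell and paraxial mesoderm genes had only 4 and 1 such genes, with a cluster at 1 each. Kdr encodes FLK1 itself, the receptor by which the cells were isolated, and had 4 intergenic peaks with folds of 28.7, 13.3, 13.9 and 15.9 between 26485 and 45105 bp from its TSS, while the strongest of its 10 peaks, 182.8, was outside the cluster. Ets1, an ETS factor, had a single strong peak of 224.6 among 4 others of 5.76 to 15.4. Cdh5, or VE-cadherin, had 5 peaks on both sides of its TSS, the strongest 21.7, and none with the composite. Tek, the receptor of angiopoietins, had 4 peaks with a maximum of 42.6 at the promoter, 54 bp from the TSS. Egfl7, a secreted factor of vessels, had 84.6, 26.3, 67.5 and 28.5 upstream and at its promoter, again with no composite. Efnb2, which encodes ephrin-B2 of arteries, had 4 peaks from 26.5 to 90.6 that lay 140424 bp or more from its TSS, and Sox7, a SOX factor, had 2 of the 4 in a cluster with a maximum of 42.1, below the 74.9 of its strongest peak outside. Aplnr is given above, and Tal1 and Cyp26a1 below.

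Of the SCL complex and its family, 3 of 14 genes had a cluster (21.4%; 7.57% to 47.6%), namely Cbfa2t3, Gata2 and Tal1. At Tal1, the gene of SCL, the folds were 21.1, 14.2, 5.89 and 127.4, of which the strongest was 253 bp from the TSS and the others upstream. At Gata2, a GATA factor of blood progenitors, 5 peaks between 2002 and 4889 bp from a TSS had folds of 6.74, 36.8, 41.8, 38.0 and 11.8, and the middle 3 of these, alike in fold, all had the composite. Strong peaks at Lyl1 (fold 293.9) and Runx1t1 (330.7) lay in no dense cluster.

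Blood transcription factors had a cluster in 5 of 28 genes (17.9%; 7.88% to 35.6%), counted by the nearest TSS. Meis1, a gene of this list, was nearest to no peak, yet a cluster of 4 peaks lay in its introns. That cluster had folds of 49.2, 35.8, 46.3 and 13.2 and was assigned to Gm16140, so Meis1 is not among the 5. Erg and Fli1, both ETS factors, had 4 peaks each with maxima of 58.0 and 37.1, although the strongest peak of either gene, 66.2 and 128.0, was outside its cluster. Ikzf1 (Ikaros) had folds of 10.7, 49.9, 8.28 and 45.1 in an intron, and Ikzf2 (Helios) had 5 peaks of 7.21 to 65.5 lying 169593 bp or more from its TSS. The remaining gene was Zfpm1. Runx1 was nearest to 16 peaks, the strongest with a fold of 298.0, but no 4 of them formed a chain. Genes for repressors and Polycomb proteins had one in 6 of 30 (interval 9.51% to 37.3%), of which 5 are described above. The other was Rybp, a subunit of Polycomb complex PRC1, with 4 intergenic peaks of 7.89, 28.0, 6.99 and 6.97 at least 91103 bp from the TSS, while the strongest of its 15 peaks, 118.6, was outside the cluster. These lists overlap, and of the genes with a cluster Cbfa2t3, Ikzf1, Ikzf2, Tal1 and Zfpm1 are each in more than 1 of them, so the counts are not independent of each other.

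Other lineages had few or none. Of 27 red cell genes, Gypc alone had a cluster (3.70%; 0.657% to 18.3%), although 22 had a peak. None of 27 cardiac genes had one (interval 0% to 12.46%), of which 17 had a peak and 5 had 4 or more. None of 16 genes of the primitive streak and early mesoderm had one (0% to 19.4%). At the share of all annotated genes these lists would hold 0.190 and 0.112 genes with a cluster, so their 0 cannot be told from that background. Of 18 paraxial mesoderm genes, Foxc2, a forkhead factor, was nearest to 10 peaks, of which 5 formed a cluster. The clustered peaks had folds of 4.89 to 14.5 and lay 54604 bp or more from its TSS, and its strongest peak outside had 26.2.

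**Figure D5:**
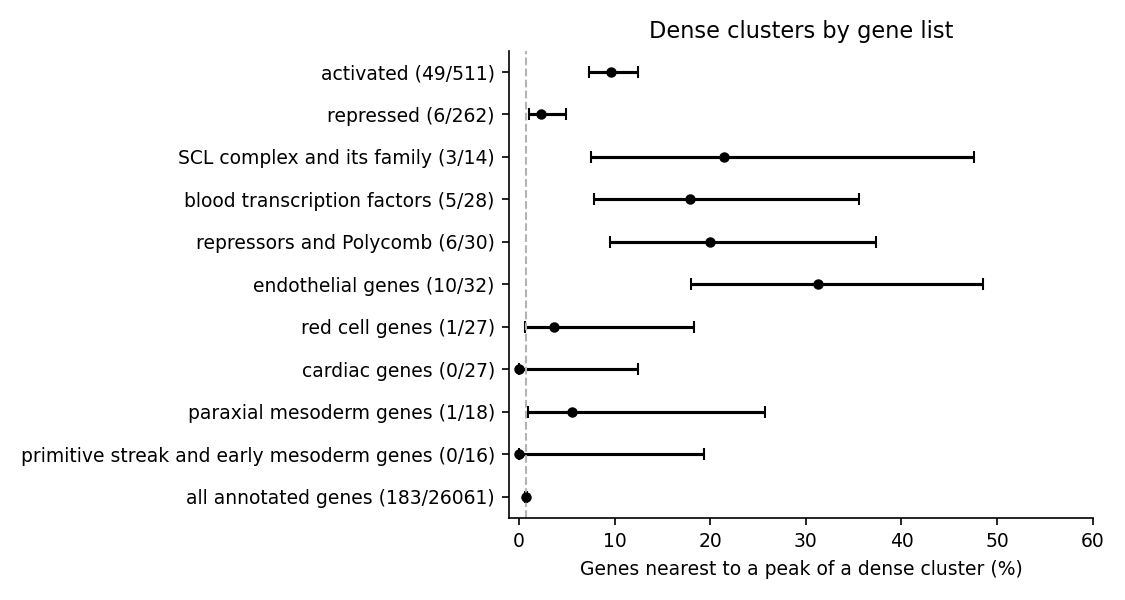
Share of genes (%) in each list that are nearest to a peak of a dense cluster, with Wilson 95% intervals and the counts in brackets. The dashed line is the share of all annotated genes, 0.702%. Endothelial genes have the highest share, 31.2%, and cardiac and primitive streak genes are at 0.

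The study lists genes that it regards as bound by SCL and activated or repressed by it. Only the names and the direction were used, and as the lists were made with these same libraries, the counts are not independent evidence of a direction. A dense cluster was nearest to 49 of 511 activated genes (9.59%; 7.33% to 12.45%) and to 6 of 262 repressed genes (2.29%; 1.05% to 4.91%). Of the list genes with any peak this was 10.2% and 2.75%, the latter close to the 2.64% of all genes with a peak. Among genes with 4 or more peaks the shares were 42 of 131 (32.1%; 24.7% to 40.5%) and 6 of 33 (18.2%; 8.61% to 34.4%), with overlapping intervals. Seen from the peaks, 225 of 1432 peaks at activated genes (15.7%) were in dense clusters and 28 of 481 at repressed genes (5.82%), against 5.55% of the whole list.

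Seen from the clusters, 49 had an activated gene, 6 a repressed gene, 96 neither and 0 both. The cluster at Rybp is among the 96, although the study names Rybp as a direct target that SCL activates. The clusters at activated genes had a median highest fold of 66.1, from 8.09 at Itgb3, an integrin of platelets, to 265.8 at Gypc. Those of neither list had 38.2 over 90 clusters without high background. The 6 at repressed genes had a median of 83.0, so that few as they were, they included strong ones. Among them, Rbfox1, a splicing regulator, had a highest fold of 104.5, 1500016L03Rik had 98.8, Smad1, a mediator of BMP signals, 94.7 and Il17rd, an inhibitor of FGF signals, 71.3. Cyp26a1, which degrades retinoic acid, had 6 peaks with folds of 7.70, 45.9, 7.05, 22.3, 57.8 and 34.4 from its promoter to 21526 bp away and a stronger one, 79.4, outside the cluster, and Col13a1, a collagen, had 12.6 as its highest. At least 1 composite was found in 83.7% of the clusters at activated genes, in 5 of the 6 at repressed genes and in 81.1% of those at neither. Counted over peaks, the composite was in 75 of 252 (29.8%) at activated genes, 7 of 28 at repressed genes and 135 of 407 (33.2%) at neither, and no difference between the groups was tested.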

How the data were processed

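SCL ChIP-seq was available as a single peak list. The authors aligned paired-end reads to mm9 with Bowtie (1.1.2), kept reads with up to 2 matching places and no duplicates, ran MACS2 (2.0.10) on the merged 2 ChIP against the merged 2 input libraries and set the list by the irreproducible discovery rate. The deposited fold is their ratio of ChIP fragments to local background, with a small constant added to both. The deposited −log10 p and −log10 q are theirs as well. The deposited score was not used. Depth per library is not given in the list. Pileup and background were solved from fold and −log10 p, to within 0.001 in 99.9% of peaks, and counting error limits each pileup (71 fragments, the median of clustered peaks, have a lower Poisson bound of 55.5).

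The members, gene lists and comparisons were chosen with earlier results of these data known. Summits were chained with pandas (2.3.3), and sequence was read with pysam (0.24.0) from the mm9 genome with GENCODE vM1 genes (protein-coding, lincRNA and processed transcripts). Motifs were counted on both strands within 50 bp of the summit, with flanks 1 kb away. Shares have Wilson, differences Newcombe and pileups exact Poisson intervals (SciPy 1.17.1). No p-value was computed, since the pooled call has no replicate. The clusters named are the 10 with most peaks (ties by summed pileup), the 10 with the highest summed pileup outside high background, and those of list genes. Other names were chosen after their values were seen. Scripts were tested on simulated data. Alternatives were the stitching distance, chain length, peak threshold, window and gene assignment. The splits by distance to the nearest summit, by like fold without high background, and of genes with 4 or more peaks were added after seeing the data. Of the activated list 511 of 514 names were matched and of the repressed list 262 of 264.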

Additional observations from a re-analysis of the deposited data

How the results depend on the processing

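Of 57 alternative values, 36 stayed within 1.5 times the count or within the interval set for them and 21 moved. The number of clusters and of their peaks depended on the rule. Stitching at 5 kb gave 42 clusters with 189 peaks, of which 61.4% had a GATA motif, and 20 kb gave 266 with 1312. Chains of 5 or more numbered 59 with 347 peaks. Chaining only peaks with a fold of at least 10 gave 36 clusters with 165 peaks, whose median fold was 26.6 against 18.1 in the other peaks, with a GATA motif in 73.9%, the composite in 38.2% and a TSS within 1 kb in 4.85%. A −log10 q of at least 50 gave 23 clusters with 101 peaks and a median fold of 28.4 against 23.8. Windows of 25 bp gave a GATA share of 44.3% and a composite share of 18.3%, and windows of 100 bp gave 76.5% and 38.3%. With promoters drawn to 5 kb, 24.3% of clustered peaks were in one. The counts of clusters, the shares by window length and the share within 5 kb follow from the construction, and the cause of the other moves was not tested. The GATA and composite shares were lower in clustered than in other peaks under all 8 alternative memberships. The interval of the GATA difference included 0 at a fold of at least 10 (-12.6 to 0.851 points), and that of the composite excluded 0 at 20 kb and with the chromosome 9 chain kept. However, the higher share near a TSS turned lower at a fold of at least 10 (4.85% against 7.51%). Leaving out each replicate could not be run, since the call is pooled. No paired analysis was possible because replicates 1 and 2 were merged before the call. At low pileups the counting error limits the order of peaks within a cluster.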
